A study of Homo sapiens with 6 samples.

Results

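The genes described here are 58 ribosome biogenesis and nucleolar genes, chosen by name, of 24462 gene symbols counted in the bulk RNA-seq dataset. Each is the row of the count files with its symbol, none of the 58 symbols is entered repeatedly, and levels are given as CPM, counts scaled so that each library sums to 1000000. The dataset compares 1CT, labelled as wild type, with 1CT-A, its APC depleted version labelled as APC KD. APC is the tumor suppressor that holds β-catenin in check. 1CT is described as an immortalized human colonic epithelial progenitor cell line, a name that the cell type markers given below do not bear out. Each line has 3 libraries, and all 6 come from untreated cells that were grown in the same medium with 2% FBS, EGF, hydrocortisone, insulin, transferrin and sodium selenite. The labels name no scrambled shRNA control and do not say whether the 3 libraries are separate cultures, so p values measure the spread between these libraries, which may be technical. 1CT-A is a single established line that was handed over by another laboratory, so any difference that the lines have gained in culture cannot be told apart from the loss of APC.

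Ribosomes are built in the nucleolus. RNA polymerase I transcribes the ribosomal DNA into 1 long precursor RNA, small nucleolar ribonucleoproteins (snoRNPs) guide its chemical modification, and large assemblies of helicases, nucleases, GTPases and scaffold proteins cut and fold it into the precursors of the small and the large subunit. Growing cells need many of these factors, and their genes are textbook targets of MYC, the transcription factor that Wnt/β-catenin signaling turns on in the colon. The listed genes are ordered here by role into 8 genes of RNA polymerase I transcription, 6 of snoRNPs, 22 of the small subunit, 18 of the large subunit and 4 general nucleolar proteins.

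As a group these genes are counted more often in 1CT-A, and by a modest amount. Of the 57 genes with enough counts to be tested, 44 pass the test, 43 as rises in 1CT-A and 1 as a fall, and 13 do not (edgeR's quasi-likelihood test, Benjamini-Hochberg adjusted p under 0.05 over 12514 genes). Of all genes tested 51.0% pass, 25.0% as higher and 26.0% as lower. Of the 8224 genes whose mean reaches 10 CPM, as that of each of the 57 does, 31.4% are higher and 23.4% are lower. The median log2 fold change of the 57 genes is 0.42, against -0.01 over all genes tested and 0.06 over the genes of at least 10 CPM. Rises run from 1.14-fold to 1.89-fold, so none of the genes reaches a fold change of 2. Of all genes tested 4.00% do so past the test in the direction of 1CT-A and 9.92% in the other. Of the 8224 genes of at least 10 CPM, 238 and 315 do, so few genes of this level reach it. In bulk RNA, more cells of one kind and more of an RNA per cell cannot be told apart.

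The libraries of 1CT and those of 1CT-A separate from each other for most of these genes. In 48 of the 57 genes every 1CT-A library lies above every 1CT library, and in 1 gene every one lies below. Of all genes tested 31.8% and 27.9% do so, and of the 8224 genes of at least 10 CPM 3211 and 2019 do. The coefficient of variation between libraries of a line has a median of 6.93% in 1CT and 5.00% in 1CT-A over these genes. The lowest count of a tested gene in a library is 74, and the highest is 23895. With 3 libraries per line, the smallest two-sided p of an exact permutation test on 1 gene is 0.1, and each call here therefore comes from the shared edgeR fit.

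**Figure D1:**
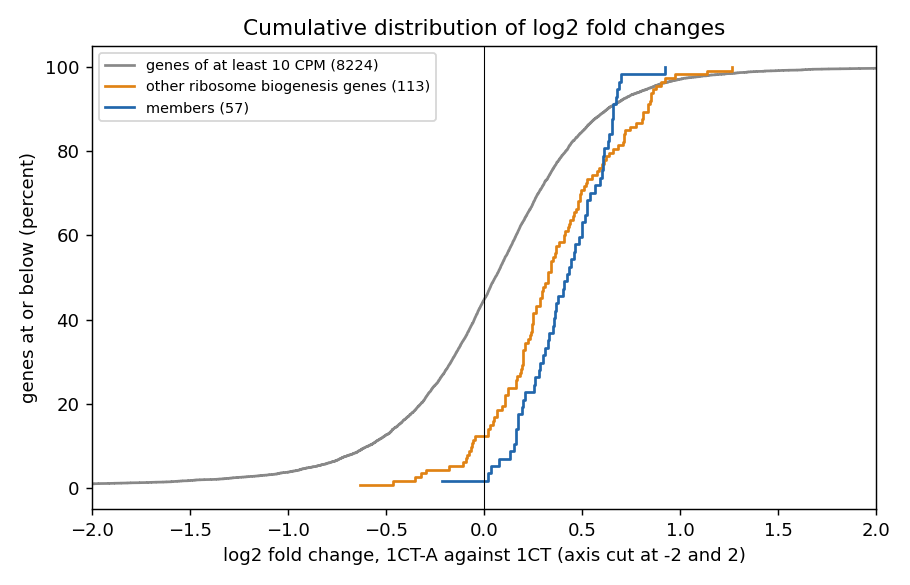
Cumulative share of genes (percent, y axis) at or below a given log2 ratio of 1CT-A to 1CT (x axis, cut at -2 and 2), for the 57 tested genes of the list (members), for 113 other ribosome biogenesis genes, and for the 8224 genes whose mean reaches 10 CPM. The blue curve of the 57 genes runs from -0.22 to 0.92 with a median of 0.42, while the grey curve of the expressed genes is centered on 0.06 and has long tails on both sides.

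Summed over the 58 genes, 1CT-A gives them a larger part of its counts. The sum is 7794, 7424 and 7779 CPM in the 1CT libraries and 10996, 10166 and 10573 CPM in the 1CT-A libraries. As a share of all counts this is 0.742% to 0.779% in 1CT and 1.02% to 1.10% in 1CT-A. The 2 ranges do not overlap, and the ratio of the means is 1.38. NCL and NPM1 are the most abundant of the genes, and without them the ratio is 1.41. By role, the ratio of the summed CPM is 1.54 for the snoRNP genes, 1.40 for RNA polymerase I transcription, 1.37 for the large subunit, 1.36 for the general nucleolar proteins and 1.32 for the small subunit. A sum is weighted to abundant genes such as NPM1, and medians give another order. The median log2 fold change is 0.62 for the snoRNP genes, 0.61 for the general nucleolar proteins and 0.45 for RNA polymerase I transcription. It is 0.40 for the large and 0.34 for the small subunit.

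**Figure D2:**
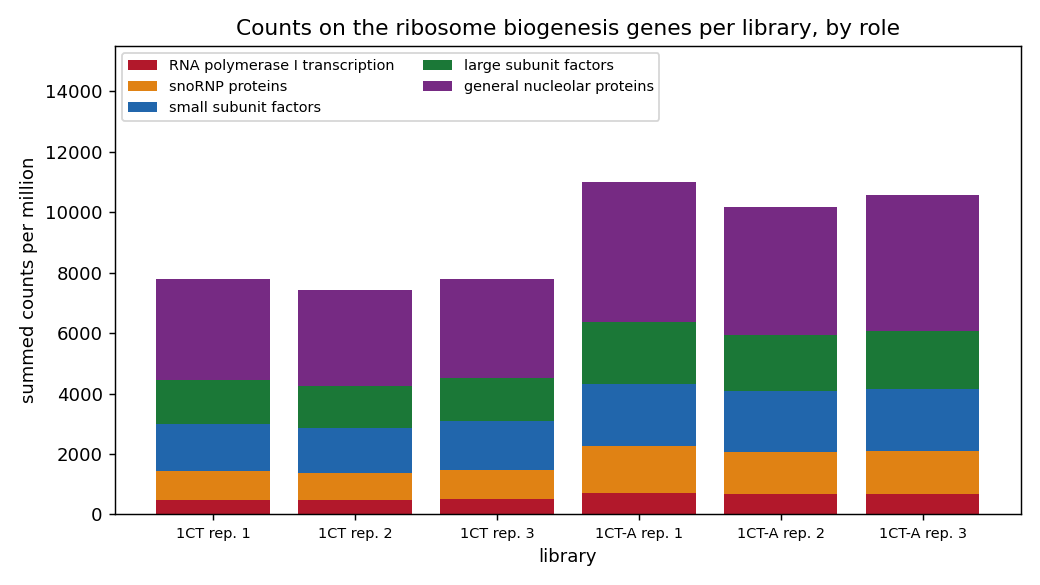
Summed CPM (y axis) of the 58 genes in each of the 6 libraries (x axis), stacked by role. The 3 bars of 1CT end between 7424 and 7794 and the 3 bars of 1CT-A between 10166 and 10996, and each colored segment is taller in 1CT-A.

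The upstream sequences of a few genes that rise are shown because the genes move together, and motifs of factors known at growth genes can be looked for there. RefSeq promoters (GRCh38.p14) were matched by symbol for 49 of the 58 genes, and the 250 bases before the annotated start were searched on both strands for 5 short motifs, none of which contains another. Where a symbol has several entries only the first was used. A window can therefore lie away from the outer start of the gene, as for PES1 and BYSL. The E-box CACGTG, which MYC and related factors bind, is in 5 of the 49 windows (10.2%), against 9.59% of 6392 windows of genes with at least 10 CPM and 6.49% of all 27305 windows. The ETS core CCGGAA is in 20 (40.8%), against 28.4% and 14.8%. The NRF1 core GCATGCG is in 6.12% of the 49 windows and in 6.45% of those of the expressed genes, the YY1 core ATGGCG in 14.3% and 10.0%, and the TATA box TATAAA in 4.08% and 4.65%. In the 101 matched windows of the 114 further ribosome biogenesis genes given at the end, the E-box is in 16 (15.8%) and the ETS core in 47 (46.5%). These shares describe letters in this window, with no test, and say nothing on binding. Below are the windows of UTP20 (chr12:101279855-101280104, plus strand), TSR1 (chr17:2336458-2336707, minus strand), NOP56 (chr20:2652382-2652631, plus strand) and FBL (chr19:39846380-39846629, minus strand), each ending at the base before the start, with the E-box and the ETS core in capitals.
UTP20: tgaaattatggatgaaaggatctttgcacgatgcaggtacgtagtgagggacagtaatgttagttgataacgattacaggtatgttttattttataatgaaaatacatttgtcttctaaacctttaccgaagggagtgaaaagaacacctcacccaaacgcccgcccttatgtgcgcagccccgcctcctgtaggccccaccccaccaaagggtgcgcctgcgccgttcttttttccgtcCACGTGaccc
TSR1: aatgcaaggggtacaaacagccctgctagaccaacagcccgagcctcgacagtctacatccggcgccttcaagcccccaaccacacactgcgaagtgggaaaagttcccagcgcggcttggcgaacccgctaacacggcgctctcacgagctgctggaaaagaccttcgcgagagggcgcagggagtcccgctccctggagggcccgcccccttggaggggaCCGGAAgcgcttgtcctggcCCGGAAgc
NOP56: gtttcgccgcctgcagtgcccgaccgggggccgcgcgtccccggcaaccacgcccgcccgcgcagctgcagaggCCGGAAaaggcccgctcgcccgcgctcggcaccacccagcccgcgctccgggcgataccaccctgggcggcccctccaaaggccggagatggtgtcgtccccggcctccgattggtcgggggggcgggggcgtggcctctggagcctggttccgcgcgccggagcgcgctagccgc
FBL: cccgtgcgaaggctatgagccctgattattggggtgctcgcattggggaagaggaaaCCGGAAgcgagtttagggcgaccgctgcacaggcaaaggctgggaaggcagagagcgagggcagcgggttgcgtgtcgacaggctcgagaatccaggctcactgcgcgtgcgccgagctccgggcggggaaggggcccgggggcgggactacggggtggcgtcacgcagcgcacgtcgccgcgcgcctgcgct
The E-box of UTP20 ends 4 bases before the annotated start, TSR1 has the ETS core at 2 places within 28 bases of its start, and NOP56 and FBL carry it farther upstream. Of the 5 genes with an E-box, UTP20, IMP4 and NAT10 rise, while UTP14A and EBNA1BP2 do not pass the test. This is 8.33% of 36 windows of genes that rise and 18.2% of 11 windows of genes not past the test. The ETS core is in 44.4% and 36.4% of these windows, with DDX56 and UTP3 among the holders not past the test. Whether a motif goes with a rise was not tested.

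All 8 genes of RNA polymerase I transcription among the 58 rise in 1CT-A, and their log2 fold changes span a narrow range from 0.33 to 0.63. The rise does not hold for the whole role. Of 9 further genes of this role in the wider list given at the end, 5 rise and 4 do not pass the test. Those 4 are TAF1B (0.51), TAF1D (-0.09), TAF1C (-0.18) and TAF1A (-0.32, with few counts). POLR1B, a core catalytic subunit of the polymerase, is at 9.23, 8.93 and 9.89 CPM in the 1CT libraries and 15.9, 13.8 and 15.0 CPM in the 1CT-A libraries. The 1CT-A libraries all lie above the 1CT libraries (log2 fold change 0.63, standard error 0.13, adjusted p = 0.00165). POLR1A, the largest subunit, is at 19.2, 18.4 and 18.2 CPM in the 1CT libraries and 27.0, 21.3 and 25.1 CPM in the 1CT-A libraries, again without overlap (log2 fold change 0.36, standard error 0.12, adjusted p = 0.0225). UBTF, the factor that binds along active ribosomal DNA, is at 152, 139.9 and 139 CPM in the 1CT libraries and 203, 195 and 209 CPM in the 1CT-A libraries. Its libraries are close to each other within each line (log2 fold change 0.46, standard error 0.07, adjusted p = 1.4e-04). RRN3, which brings the polymerase to the promoter, has the smallest rise of the 8, with 109.6, 118 and 99.4 CPM in the 1CT libraries and 137, 154 and 132 CPM in the 1CT-A libraries (log2 fold change 0.33, standard error 0.08, adjusted p = 0.00522). The subunits POLR1E and POLR1C have log2 fold changes of 0.61 and 0.43, TCOF1, the treacle protein that acts beside UBTF, has 0.50, and MYBBP1A, a nucleolar MYB-binding protein, has 0.44. The calls of POLR1A and MYBBP1A are lost without 1CT-A replicate 1, where the log2 fold changes are 0.28 and 0.33, and that of POLR1A also without 1CT replicate 2 (0.35) or 1CT-A replicate 3 (0.35).

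The snoRNP genes hold both the largest rise and the only fall. NOLC1, a phosphoprotein that chaperones snoRNPs between the nucleolus and Cajal bodies, is at 53.5, 56.9 and 58.03 CPM in the 1CT libraries and 107, 109 and 112 CPM in the 1CT-A libraries. All 1CT-A libraries lie far above the 1CT libraries, a 1.89-fold rise (log2 fold change 0.92, standard error 0.08, adjusted p = 6.6e-07). It is the highest of the 57 genes, and it ranks 621 among the log2 fold changes of all genes tested. The box C/D snoRNPs add methyl groups to ribosomal RNA, and their core genes rise together. FBL, the methyltransferase fibrillarin, is at 409, 359 and 407 CPM in the 1CT libraries and 706, 583 and 615 CPM in the 1CT-A libraries (log2 fold change 0.66, standard error 0.09, adjusted p = 3.4e-05), and 1CT-A replicate 1 is the highest library. NOP56, a scaffold protein of the same particle, is at 208, 191 and 229 CPM in the 1CT libraries and 355, 338 and 338 CPM in the 1CT-A libraries (log2 fold change 0.67, standard error 0.08, adjusted p = 1.4e-05). NOP58, its partner, has a log2 fold change of 0.46, and SNU13, the core protein from the list of other ribosome biogenesis genes, has 0.38.

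The box H/ACA snoRNPs, which convert uridine into pseudouridine, hold both a rise and a fall. GAR1, a protein of their core, is at 97.6, 96.8 and 78.2 CPM in the 1CT libraries and 144, 130.2 and 147 CPM in the 1CT-A libraries, without overlap (log2 fold change 0.59, adjusted p = 1.5e-04). NHP2, a protein of the same core, is at 96.7, 89.6 and 103 CPM in the 1CT libraries and 83.1, 86.2 and 86.6 CPM in the 1CT-A libraries, with all 1CT-A libraries below the 1CT libraries (log2 fold change -0.22, standard error 0.08, adjusted p = 0.037). The fall of NHP2 passes the threshold by little, and the call is lost in 9 of 15 alternatives, among them DESeq2 and library size only, and without 1CT replicate 1 or 3 or any 1CT-A library, with log2 fold changes from -0.27 to -0.15 over the 15. From the other ribosome biogenesis genes, DKC1, the pseudouridine synthase of the particle, is at 221, 209 and 238 CPM in the 1CT libraries and 379, 364 and 382 CPM in the 1CT-A libraries (log2 fold change 0.71, adjusted p = 3.9e-06), and NOP10 has overlapping libraries and a log2 fold change of -0.09 (adjusted p = 0.385). Counts of GAR1 divided by those of NHP2, which need no scaling between libraries, are 1.01, 1.08 and 0.759 in the 1CT libraries and 1.74, 1.51 and 1.70 in the 1CT-A libraries. This pair was picked after the values were seen, so its ratio is a description.

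**Figure D3:**
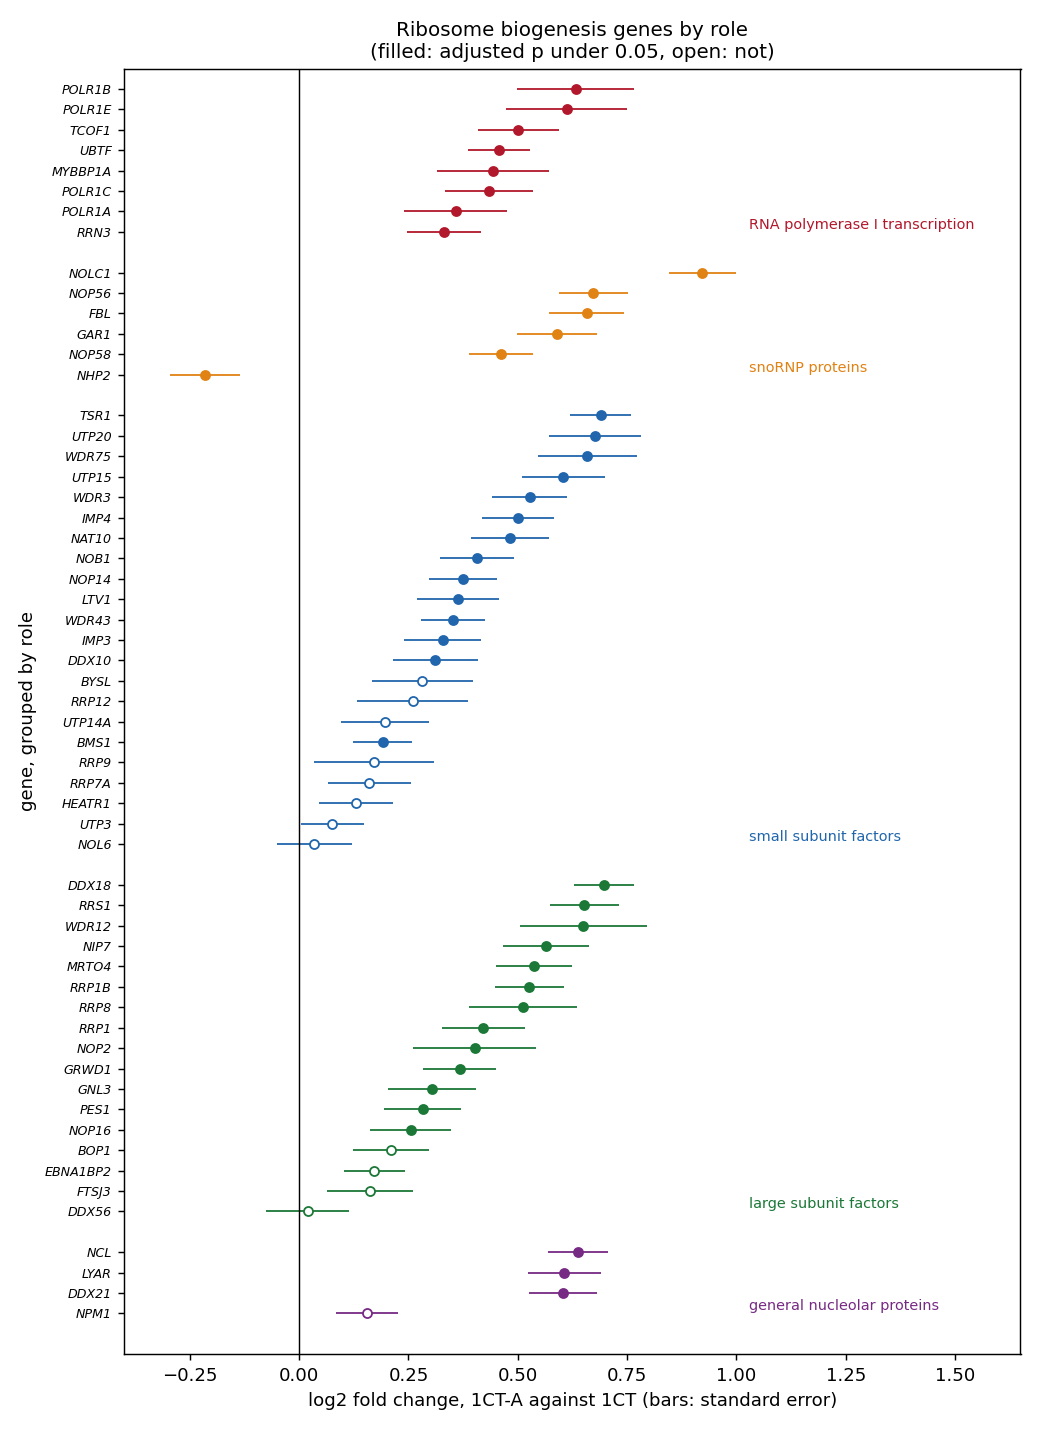
Log2 ratio of 1CT-A to 1CT (x axis) for each of the 57 tested genes (y axis), grouped and colored by role, with bars for the standard error of the edgeR fit, filled points for an adjusted p under 0.05 and open points otherwise. NOLC1 at 0.92 lies farthest right, NHP2 at -0.22 is the only point left of 0, and open points gather in the lower part of the small and the large subunit groups.

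Of the 22 small subunit genes, 14 rise, none falls, and 8 do not pass the test, with a median log2 fold change of 0.34. TSR1, a GTPase-like factor of late small subunit precursors, is at 136, 131 and 144 CPM in the 1CT libraries and 225, 228 and 228 CPM in the 1CT-A libraries. The 1CT-A libraries differ from each other by less than 5 CPM (log2 fold change 0.69, standard error 0.07, adjusted p = 3.7e-06). UTP20, a large repeat protein of the processome that folds the young precursor RNA, is at 26.9, 22.6 and 23.2 CPM in the 1CT libraries and 42.5, 36.3 and 40.5 CPM in the 1CT-A libraries (log2 fold change 0.68, standard error 0.11, adjusted p = 1.5e-04). WDR75, from the UtpA subcomplex that binds the precursor first, is at 62.2, 56.7 and 48.5 CPM in the 1CT libraries and 76.2, 92.9 and 103 CPM in the 1CT-A libraries, with 1CT-A replicate 1 the lowest of its line (log2 fold change 0.66, standard error 0.11, adjusted p = 3.4e-04). In the same subcomplex UTP15 has a log2 fold change of 0.60 and WDR43 has 0.35, at 176, 165 and 185 CPM in the 1CT libraries and 240.2, 224 and 225 CPM in the 1CT-A libraries for the latter (adjusted p = 0.00148). HEATR1, the other listed protein of UtpA, is at 56.3, 54.3 and 62.0 CPM in the 1CT libraries and 66.7, 63.3 and 64.2 CPM in the 1CT-A libraries and does not pass the test (log2 fold change 0.13, adjusted p = 0.216).

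The proteins IMP3 and IMP4, which help the guide snoRNA bind the precursor, rise with log2 fold changes of 0.33 and 0.50. IMP3 is at 193, 187 and 234 CPM in the 1CT libraries and 265, 265 and 261 CPM in the 1CT-A libraries, and its 1CT-A libraries are nearly level (standard error 0.09, adjusted p = 0.00701). DDX10, a helicase, is at 57.3, 63.9 and 68.7 CPM in the 1CT libraries and 88.5, 78.4 and 75.1 CPM in the 1CT-A libraries (log2 fold change 0.31, standard error 0.10, adjusted p = 0.0161), and its call is lost without 1CT replicate 1 or 1CT-A replicate 1 (0.24 in both). BMS1, a GTPase of the processome, shows the smallest difference that passes the test, with 135, 131 and 132 CPM in the 1CT libraries and 155, 152 and 159.9 CPM in the 1CT-A libraries (log2 fold change 0.19, standard error 0.07, adjusted p = 0.0313). Its libraries do not overlap, but the call is lost in 6 of 15 alternatives, among them upper-quartile scaling (0.13) and the fits without 1CT replicate 1 (0.20) or 2 (0.18) or 1CT-A replicate 1 (0.19) or 3 (0.18). Rises are also found for WDR3 (0.53), NAT10, the RNA acetyltransferase (0.48), NOB1, the endonuclease of the last cut of the small subunit RNA (0.41), NOP14 (0.37) and LTV1, which leaves with the late precursor (0.36). BYSL, RRP12, UTP14A, RRP9, RRP7A, UTP3 and NOL6 do not pass the test, with log2 fold changes between 0.03 for NOL6 and 0.28 for BYSL. The libraries of BYSL, UTP14A and UTP3 still do not overlap, and those of RRP12, RRP9, RRP7A and NOL6 do.

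Of the 17 large subunit genes tested, 13 rise, none falls, and 4 do not pass the test, with a median log2 fold change of 0.40. DDX18, a helicase of early large subunit precursors, is at 98.0, 98.5 and 93.1 CPM in the 1CT libraries and 164, 160.4 and 158 CPM in the 1CT-A libraries (log2 fold change 0.70, standard error 0.07, adjusted p = 3.3e-06). RRS1, an assembly factor of these precursors, is at 264, 250.4 and 283 CPM in the 1CT libraries and 464, 400.3 and 423 CPM in the 1CT-A libraries (log2 fold change 0.65, standard error 0.08, adjusted p = 1.8e-05). Neither gene has overlapping libraries. The PeBoW complex joins PES1, BOP1 and WDR12 and is required to process the precursor of the large subunit RNA. WDR12 is at 13.4, 9.18 and 10.3 CPM in the 1CT libraries and 17.2, 18.3 and 17.5 CPM in the 1CT-A libraries (log2 fold change 0.65, standard error 0.15, adjusted p = 0.00237), and 1CT replicate 1 stands above the other 1CT libraries. PES1 is at 127, 113 and 108 CPM in the 1CT libraries and 158, 133 and 142 CPM in the 1CT-A libraries (log2 fold change 0.28, standard error 0.09, adjusted p = 0.0163), a call that is lost without 1CT-A replicate 1 (0.21). BOP1 is at 33.1, 33.7 and 36.3 CPM in the 1CT libraries and 41.1, 40.3 and 41.1 CPM in the 1CT-A libraries. These values do not overlap, but the difference does not pass the test (log2 fold change 0.21, standard error 0.09, adjusted p = 0.0596), apart from the fits with library size only, without a filter on low counts and without 1CT replicate 3, where log2 fold changes are 0.25, 0.26 and 0.27.

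GNL3, the GTPase nucleostemin, is at 44.2, 45.6 and 36.6 CPM in the 1CT libraries and 54.1, 48.8 and 57.3 CPM in the 1CT-A libraries (log2 fold change 0.30, standard error 0.10, adjusted p = 0.023), and without 1CT-A replicate 1 (0.29) or 3 (0.26) or with upper-quartile scaling (0.25) its call is lost. NOP16 is at 159, 137 and 120.2 CPM in the 1CT libraries and 172, 161 and 177 CPM in the 1CT-A libraries (log2 fold change 0.26, standard error 0.09, adjusted p = 0.0349), with a call that is also lost under upper-quartile scaling (0.20) and without 1CT replicate 2 (0.25) or 3 (0.18) or 1CT-A replicate 1 (0.25) or 3 (0.23). Larger rises come from NIP7 (0.56), MRTO4, a relative of a stalk protein of the ribosome (0.54), RRP1B (0.53), RRP8, a methyltransferase (0.51), RRP1 (0.42) and GRWD1 (0.37). NOP2, a methyltransferase of the large subunit RNA and a classic proliferation antigen, is at 24.3, 23.2 and 34.9 CPM in the 1CT libraries and 39.7, 37.6 and 34.4 CPM in the 1CT-A libraries. It is the only gene with a rise whose libraries overlap, since 1CT replicate 3 lies above the lowest 1CT-A library (log2 fold change 0.40, standard error 0.14, adjusted p = 0.0303), and the call is lost without 1CT replicate 1 (0.32) or 2 (0.29), without 1CT-A replicate 1 (0.35) or 2 (0.40), and under upper-quartile scaling (0.34). EBNA1BP2, FTSJ3 and the helicase DDX56 do not pass the test, with log2 fold changes of 0.17, 0.16 and 0.02. PPAN has 0 counts in all 6 libraries and is not tested. Only if its reads are counted under its own symbol does this limit its level, to 0.238 to 0.385 CPM. The readthrough gene PPAN-P2RY11, which contains PPAN, has 7, 7 and 9 counts in 1CT and 12, 21 and 23 counts in 1CT-A, so reads of PPAN could be counted there or left out.

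Among the general nucleolar proteins, NCL, DDX21 and LYAR rise and NPM1 does not pass the test. NCL, the abundant RNA-binding protein nucleolin, is at 1046, 1001 and 1112 CPM in the 1CT libraries and 1760.3, 1618 and 1671 CPM in the 1CT-A libraries, without overlap (log2 fold change 0.64, standard error 0.07, adjusted p = 6.0e-06). NPM1, the nucleolar chaperone nucleophosmin, is at 1765, 1575 and 1626 CPM in the 1CT libraries and 2017, 1763 and 1896 CPM in the 1CT-A libraries. The highest 1CT library lies at the level of the lowest 1CT-A library (log2 fold change 0.15, standard error 0.07, adjusted p = 0.0863), and with library size only, without a filter on low counts or without 1CT-A replicate 2 the difference passes the threshold (0.19, 0.20 and 0.21). DDX21, a helicase that senses polymerase I and II transcription, is at 476, 569.8 and 489 CPM in the 1CT libraries and 784, 760.2 and 851 CPM in the 1CT-A libraries (log2 fold change 0.60, adjusted p = 3.0e-05), and LYAR has a log2 fold change of 0.61. Counts of NPM1 divided by those of NCL are 1.69, 1.57 and 1.46 in the 1CT libraries and 1.15, 1.09 and 1.13 in the 1CT-A libraries. NPM1 takes 20.9% to 22.6% of the counts on the 58 genes in 1CT and 17.3% to 18.3% in 1CT-A, and NCL takes 13.4% to 14.3% and 15.8% to 16.0%. This ratio and these shares were chosen after the values were seen.

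**Figure D4:**
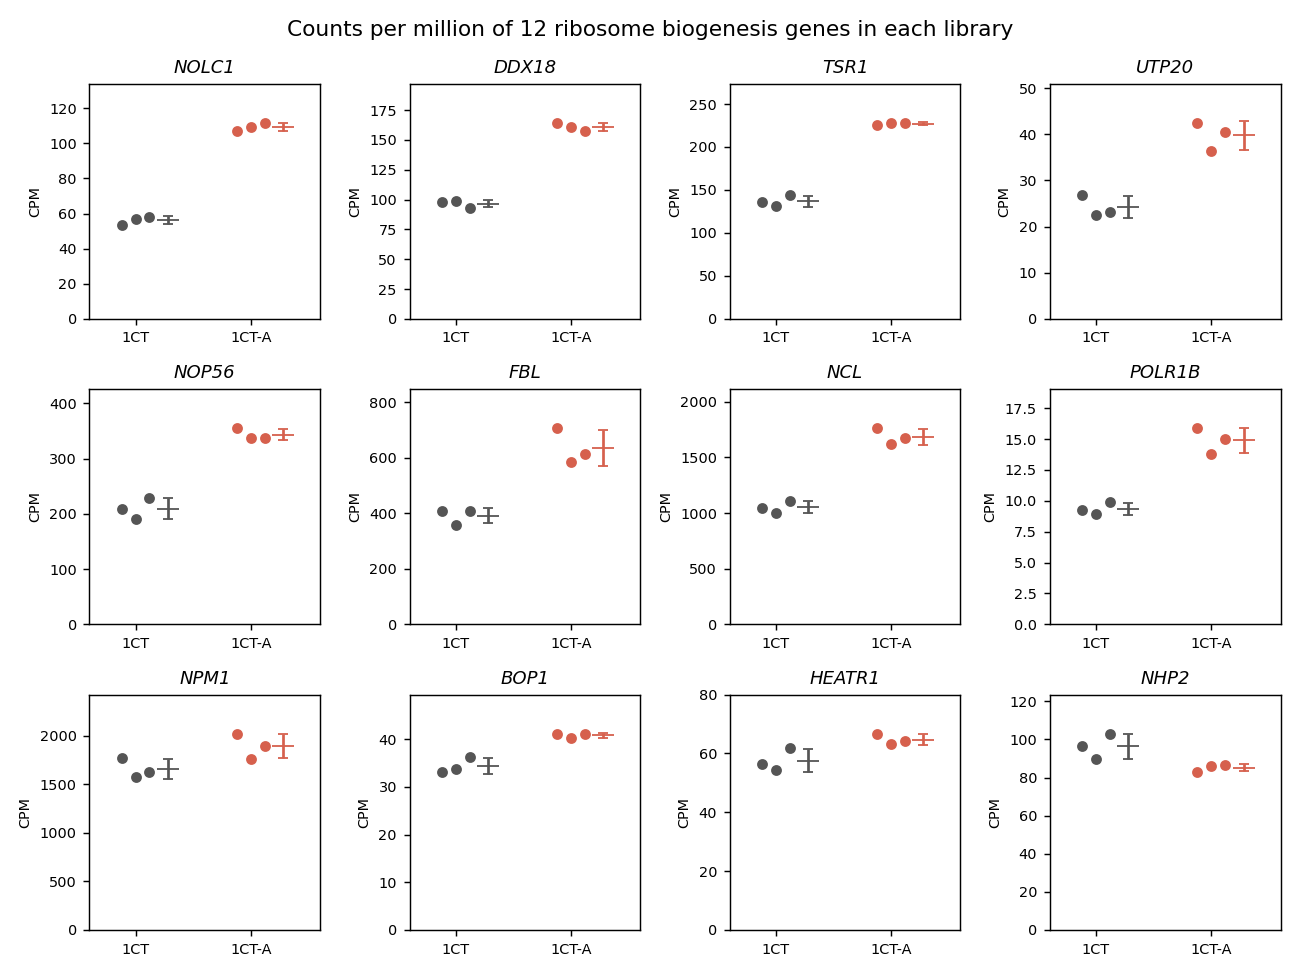
CPM (y axis, from 0, scaled per gene) of 12 genes in the 3 libraries of 1CT (grey) and of 1CT-A (red), with bars for the mean and SD. For NOLC1, DDX18, TSR1, UTP20, NOP56, FBL, NCL and POLR1B the groups stand apart, for NPM1 they touch, for BOP1 and HEATR1 they lie close, and for NHP2 the 1CT-A points are the lower ones.

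A further 114 ribosome biogenesis genes, listed by role, give the wider pathway. Of the 113 tested, 63 rise, 4 fall and 46 do not pass the test (edgeR, adjusted p under 0.05). Of all genes tested 25.0% rise and 26.0% fall, and of those of at least 10 CPM 31.4% and 23.4%. The median log2 fold change of the 113 genes is 0.33, given beside the 0.42 of the 57 genes without a test of the difference. The 5 highest are BRIX1, a large subunit factor, at 70.1 ± 14.2 CPM in 1CT and 173 ± 5.24 CPM in 1CT-A (SD, n = 3 each) (log2 fold change 1.27), EXOSC8 (1.14) and EXOSC3 (0.92) of the RNA exosome that trims precursor RNAs, NUFIP1, a snoRNP assembly factor (0.97), and PAK1IP1 (0.90). Each has an adjusted p of at most 5.4e-05. BRIX1 and EXOSC8 pass a fold change of 2, which no gene of the 57 does. By role, 10 of 14 exosome genes, 7 of 10 snoRNP genes, 5 of 9 genes of RNA polymerase I transcription, 21 of 38 small subunit genes and 20 of 42 large subunit genes rise.

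The 4 genes of this wider list that fall are EFL1, EIF6, RIOK3 and ZNF622. EIF6, which keeps the new large subunit from joining the small one, is at 306, 275 and 346 CPM in the 1CT libraries and 246, 224 and 219 CPM in the 1CT-A libraries, without overlap (log2 fold change -0.47, standard error 0.09, adjusted p = 8.4e-04). EFL1, the GTPase that releases EIF6 in the cytoplasm, is at 22.1, 19.3 and 17.6 CPM in the 1CT libraries and 15.5, 10.7 and 12.9 CPM in the 1CT-A libraries (log2 fold change -0.64, standard error 0.15, adjusted p = 0.00348). RIOK3, a kinase of late small subunit precursors, has a log2 fold change of -0.35, and ZNF622, a cytoplasmic large subunit factor, has -0.30 (adjusted p = 0.00734 and 0.0273). DCAF13, a small subunit factor, has the smallest of the 63 rises (log2 fold change 0.21).

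Facts of the whole dataset bear on these values as follows. The totals are 7788679 to 8452258 counts in 1CT and 11158108 to 12602988 in 1CT-A, and a count of 3, taken as the smallest visible, is 0.355 to 0.385 CPM in the former and 0.238 to 0.269 CPM in the latter, for counting error only. APC itself falls, with a log2 fold change of -0.58 (standard error 0.09, adjusted p = 1.8e-04). MYC is at 8.28, 8.57 and 4.75 CPM in the 1CT libraries and 15.4, 21.4 and 17.6 CPM in the 1CT-A libraries (log2 fold change 1.29, adjusted p = 1.2e-04), and its part in the rises of the ribosome biogenesis genes was not tested. Of 8 epithelial markers, 4 have at most 3 counts in every library, EPCAM and VIL1 among them at 0, and only KRT18 is over 3 counts in all libraries. The 8 sum to 13.4 to 17.4 CPM in 1CT against 3.23 to 7.20 CPM in 1CT-A, where KRT19 is at 0 in every library. All 6 fibroblast markers are over 3 counts in every library and sum to 2684 to 3460 CPM in 1CT against 2559.9 to 2752 CPM in 1CT-A. COL1A1 and COL1A2 carry this sum, and the 6 do not move alike. COL3A1 has 45.2, 66.8 and 31.5 CPM in the 1CT libraries and 239.6, 269 and 251 CPM in the 1CT-A libraries (5.16-fold, adjusted p = 2.7e-07), DCN rises 1.23-fold, COL1A1 falls to 0.666 of its 1CT level (adjusted p = 2.2e-05), and COL1A2, LUM and PDGFRA do not pass the test. All 4 endothelial markers stay at or below 3 counts, and so do 3 of 5 immune markers, with PTPRC and CD3E at 0 and a sum over the 5 of 12.6 to 15.0 CPM in 1CT against 9.12 to 10.4 CPM in 1CT-A. By these RNA markers neither line looks epithelial, although both are described as such. The part of this marker pattern in the differences was not tested.

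Counts of a few genes are uncertain because of close copies. BMS1 has 7 pseudogenes in the files, with 146 to 204 counts per library in all, against 1028 to 2015 on BMS1. BMS1P17 and BMS1P18 have 0 counts, and BMS1P4, BMS1P5, BMS1P6, BMS1P20 and BMS1P21 are lower in 1CT-A. In that order, edgeR log2 fold changes are -1.50, -1.67, -1.19, -0.44 and -2.22 (adjusted p = 8.8e-04, 0.00114, 0.0110, 0.0396 and 0.00164). The libraries of BMS1P20 overlap. Whether reads assigned to these copies affect the rise of BMS1 was not tested. RRP7BP, a pseudogene of RRP7A, has 72 to 112 counts against 415 to 726 on RRP7A, and is lower in 1CT-A (edgeR log2 fold change -0.91, adjusted p = 4.1e-04). UTP14C has 9 to 19 counts against 181 to 361 on UTP14A, and does not pass the test. How reads that match several places were counted is not given in the sources used here, and the same holds for strand, so overlapping genes are uncertain.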

How the data were processed

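QuantSeq libraries, which read the 3′ ends of poly(A) RNA, are prepared from 500 ng of total RNA of 1CT and 1CT-A cells. The authors deposited raw counts per gene symbol, 1 file per library with 25737 entries, not normalized and not pooled. The submitters' processing notes name Bowtie2, edgeR and hg19, with no role given. The counting tool, annotation and filters are not given in the sources used here. Counts of 286 repeated symbols are added. Testing uses edgeR 4.0.16 (R 4.3.3): TMM normalization (factors 0.976 to 1.02), filterByExpr (minimum count 10), a quasi-likelihood test between the lines on the 12514 genes left, and Benjamini-Hochberg adjustment, called under 0.05. Fold changes come from this fit, while CPM values are scaled to the file totals. The fit was also run on data simulated with a single dispersion for all genes. This checks that the code recovers fold changes and says nothing on the calls.

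Libraries are grouped by title. The members and lists were chosen with earlier results of these data known. Full statistics go to the 10 highest and 10 lowest log2 fold changes among genes past the test, and to NCL, NPM1, FBL, POLR1A, POLR1B, UBTF, NOP56 and BOP1, and of the other 114 genes the 5 highest and 5 lowest past the test are named. Further genes are named after their values were seen. Alternatives are other scalings, filters, DESeq2 1.42.0, limma-voom (limma 3.58.1), the replicate number as a block, the row with the most counts of a repeated symbol, a threshold of 0.01, and each library left out.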

Additional observations from a re-analysis of the deposited data

How the results depend on the processing

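The number of the 57 genes that rise stays between 39 and 47 over the alternative scalings, filters and tests at the same threshold, is 35 at an adjusted p under 0.01, and runs from 35 without 1CT-A replicate 1 to 47 without 1CT replicate 3. The number past the threshold in either direction is 35 to 47 with a library left out, that of other ribosome biogenesis genes that rise 53 to 70, and that of those that fall 3 to 4. Over the other alternatives these are 54 to 77 and 3 to 5, and 48 and 3 at an adjusted p under 0.01. Of the 43 genes, 35 keep a rise past the threshold in all 15 alternatives run at the same threshold, and 8 lose the call in at least 1 (BMS1, DDX10, GNL3, MYBBP1A, NOP16, NOP2, PES1 and POLR1A). Of the 13 genes not past the test, BOP1, BYSL, EBNA1BP2 and NPM1 pass with library size only, without a filter and without 1 library each, BYSL also with limma-voom and the block, and FTSJ3, HEATR1, RRP12 and RRP7A without 1 library each. The number of genes that fall is 1 and becomes 0 with library size only, without a filter on low counts, with DESeq2, with the replicate block, and at an adjusted p under 0.01, and is 0 to 1 with a library left out. The cause was not tested. The median log2 fold change of the genes is 0.36 under upper-quartile scaling, 0.47 without a filter and 0.39 to 0.45 with a library left out. Its distance from the median of all genes tested is 0.43 under each of the 4 scalings. A scaling shifts all genes by about the same amount, so this distance could hardly change there and says nothing on stability. It is 0.57 without a filter and 0.40 with at least 10 counts in every library. The ratio of summed CPM, on file totals, is 1.35 to 1.41 with a library left out. It is smaller on TMM-scaled CPM, since the TMM factors are 0.976 to 0.994 in 1CT and 1.005 to 1.02 in 1CT-A. None of the genes is called in any fit by the rule in the study's methods, which asks for a 2-fold change with p under 0.01 before adjustment, and 13.4% of all genes tested are called by it in edgeR. DDX56 turns from 0.02 to -0.0372 under upper-quartile scaling and runs from -0.00214 to 0.0493 with a library left out, and NOL6 turns from 0.03 to -0.0220 under upper-quartile scaling, and neither gene passes the test in any fit. APC stays between -0.63 and -0.53 and MYC between 1.08 and 1.43 with a library left out.

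The labels give both lines the numbers 1 to 3 and do not say whether the numbers pair the libraries. Deviations of same-numbered libraries have correlations of -0.16, 0.22 and -0.14 over 8224 genes. The highest value, 0.34, is that of 1CT replicate 3 with 1CT-A replicate 1. With deviations taken from the mean of only 3 libraries per line, these values cannot decide on a pairing. With the replicate number as a block, 43 of the genes pass the threshold, all of them rises, and 42 of these are among the 43 of the fit without the block. BMS1 (0.19, adjusted p = 0.0686) is the rise lost and BYSL (0.29, adjusted p = 0.0322) the one gained. POLR1B and WDR12, which are among the genes with fewest counts, have standard errors of 0.13 and 0.15, and NOP2 with more counts has 0.14. The part of depth in these was not tested.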

Other observations

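The 4 genes that fall in the wider pathway list include EIF6, EFL1 and ZNF622, which act on the new large subunit, and RIOK3, which acts on the small one. Other factors known for late steps were looked up after the values were seen. Of the 5 late small subunit factors among the 58 genes (TSR1, NOB1, LTV1, BYSL and RRP12), 3 rise and none falls, and PNO1 of the wider list rises as well (edgeR log2 fold change 0.81, adjusted p = 1.1e-04). RIOK1 rises, at 22.5, 21.4 and 22.6 CPM in the 1CT libraries and 33.4, 29.9 and 30.5 CPM in the 1CT-A libraries (edgeR log2 fold change 0.46, adjusted p = 0.00181). RIOK2 does not pass the test (log2 fold change 0.20, adjusted p = 0.217), nor do the export adaptor NMD3 (0.11), the GTPase LSG1 (0.03) and SBDS, the partner of EFL1 (0.50). SBDS varies widely between libraries, with 118, 76.1 and 46.7 CPM in the 1CT libraries and 90.9, 145 and 113 CPM in the 1CT-A libraries. A difference between cytoplasmic and nucleolar steps was not tested.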
